A study of Mus musculus with 9 samples.

Results

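The deposited count table of 9 mouse organoid samples held 99 cytochrome P450 genes among 23955 gene symbols. Members were all symbols made of Cyp, a family number and a subfamily letter, with pseudogene symbols left out, so that levels played no part in the choice and Cyp51, which has no subfamily letter, is not among them. Cytochrome P450 enzymes are heme proteins of the endoplasmic reticulum and mitochondria that insert an oxygen atom into their substrate, using electrons passed on by NADPH-cytochrome P450 reductase or by ferredoxin. In the gut, members of families 1 to 3 oxidise drugs, dietary compounds, steroids and polyunsaturated fatty acids in differentiated enterocytes, family 4 hydroxylates fatty acids and eicosanoids, and other families build or break down sterols, bile acids, steroid hormones, vitamin D and retinoic acid. Many are switched on through ligand-bound receptors, of which the aryl hydrocarbon receptor for family 1 and the pregnane X and constitutive androstane receptors for families 2 and 3 are the best known.

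All organoids came from APCmin/+ mice, which carry a germline truncating mutation in a single copy of Apc, and were grown with Noggin, EGF, bFGF, R-spondin1 and B27. The MIN group was made from APC-mutated gut epithelium next to the tumors, the Adenoma group from adenomatous polyps, and the Sulindac group from adenomatous polyps whose organoids were treated with sulindac, a non-steroidal anti-inflammatory drug that inhibits cyclooxygenases. Each group had 3 biological replicates. The dose and length of treatment of the organoids, a vehicle for the untreated adenoma organoids, the gut segment and the age and number of mice behind a sample are not given in the sources used here. Adenoma over MIN compares tumor with adjacent epithelium, and Sulindac over Adenoma gives the change with treatment. Sulindac over MIN shares its samples with both.

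Libraries held 30881206 to 48412477 counts, of which the top 10 genes made up 5.15-7.48%. At this depth 3 counts, the floor used here, correspond to 0.0641 to 0.100 CPM (counts scaled to library size, here after TMM normalization), the scale of every level below. The epithelial markers Epcam, Cdh1, Vil1, Krt8 and Krt18 summed to 4462-6307 CPM in MIN, 2900-3725 in Adenoma and 4005-4667 in Sulindac. Markers of leukocytes summed to at most 16.6 CPM in any sample, of mesenchyme to at most 4.22 and of endothelium to at most 0.572, with Col1a2 and Col3a1 at 0 counts in all samples. The 4 hepatocyte markers summed to 6.55-9.51 CPM in MIN, 1.10-2.35 in Adenoma and 0.459-0.960 in Sulindac.

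The 8 enterocyte markers (Alpi, Sis, Lct, Fabp1, Fabp2, Anpep, Apoa1, Apoa4) summed to 2866-4744 CPM in MIN, 48.8-81.5 in Adenoma and 11.7-28.9 in Sulindac, and all 8 were lower in Adenoma than in MIN. The 4 secretory markers went from 3874-5856 CPM in MIN to 27.8-70.4 in Adenoma and 10.1-16.7 in Sulindac, and all 4 were lower in Adenoma. The stem cell markers Lgr5, Olfm4 and Ascl2 summed to 863-1853, 143-189 and 71.6-115.9 CPM, with 1 higher and 2 lower in Adenoma, and of the 6 markers of position along the gut 5 were tested and all 5 were lower in Adenoma. From MIN to Adenoma the summed levels of the enterocyte, secretory and stem cell lists went down, as did the summed cytochrome P450 level. From Adenoma to Sulindac the summed levels of these lists went down again, whereas the summed cytochrome P450 level went up. The epithelial sum above went down in Adenoma and up in Sulindac, as the P450 sum did. Of its markers, Vil1 and Krt8 were called higher in Sulindac over Adenoma and 3 were not called. The position markers summed to 192-233 CPM in MIN, 92.2-112.6 in Adenoma and 106.7-120.2 in Sulindac. In Sulindac over Adenoma the enterocyte markers Sis and Anpep were called lower, 1 was not called and 5 had too few counts. The Anpep mean went from 58.0 to 16.5 CPM. Of the secretory and stem cell markers, 2 each were tested and none was called. The part of these lists in the differences described next was not tested. In such bulk samples, fewer cells of a type and less RNA per cell cannot be told apart.

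Cytochrome P450 transcripts were abundant in MIN, scarce in Adenoma and abundant again in Sulindac, but made up of different genes. Summed over the 99 members, the level was 1694, 1565 and 1433 CPM in MIN, 324, 279.5 and 311 in Adenoma, and 1283, 1225 and 1126 in Sulindac. In MIN, families 2 and 3 held 65.9-69.4% of the sum and family 4 held 26.3-30.9%, with 0.0361-0.260% for family 1. In Sulindac, family 1 held 74.1-77.5%, and Cyp1a1 alone 49.3-56.0%. Without Cyp1a1 and Cyp1b1 MIN samples summed to 1432-1690 CPM, Adenoma samples to 246-273 and Sulindac samples to 279-292, and the groups did not overlap. Per kilobase of the longest annotated transcript, the highest means were those of Cyp4f14 (108.4 CPM/kb), Cyp2c65 (73.5) and Cyp3a13 (66.6) in MIN, of Cyp27a1 (18.9), Cyp4f13 (15.9) and Cyp4b1 (15.4) in Adenoma, and of Cyp1a1 (241.6), Cyp1b1 (53.3) and Cyp4f13 (24.2) in Sulindac.

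**Figure D1:**
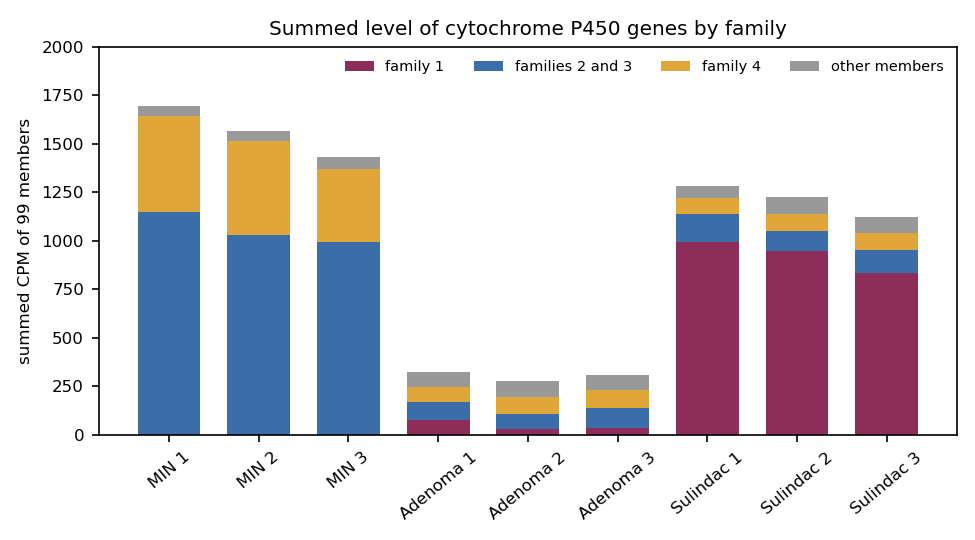
Summed level of the 99 cytochrome P450 genes in each of the 9 samples (bars from 0, in TMM-normalized CPM), split by family. The MIN bars (1433-1694 CPM) are mostly families 2 and 3 and family 4, the Adenoma bars reach 279.5-324 CPM, and family 1 fills 74.1-77.5% of each Sulindac bar.

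Of the 99 members, 18 had no count in any sample, 27 had at most 3 counts in every sample, and 54 exceeded 3 counts in at least 1 sample. MIN had 22 members with no count in its samples, Adenoma 39 and Sulindac 45, while 30, 20 and 21 members reached a mean of 1 CPM. Over all symbols, those with a count in a sample also became fewer. They numbered 16482 to 16586 in MIN, 15908 to 15967 in Adenoma and 15111 to 15611 in Sulindac, and the MIN libraries were the deepest. A total of 40 members passed the filter on low counts in at least 1 comparison and 25 in all 3. In Adenoma over MIN 39 members were tested and 60 were not. At a false discovery rate (FDR) of 1% over all genes tested, 6 were higher in Adenoma and 23 lower, that is 15.4% and 59.0% of those tested, where 18.5% of all genes tested were called higher and 20.1% lower. The median log2 fold change was -2.19 over the tested members and -0.01 over all genes tested. A member could enter the test through its level in MIN alone, so these counts describe the tested members and not the family.

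**Figure D2:**
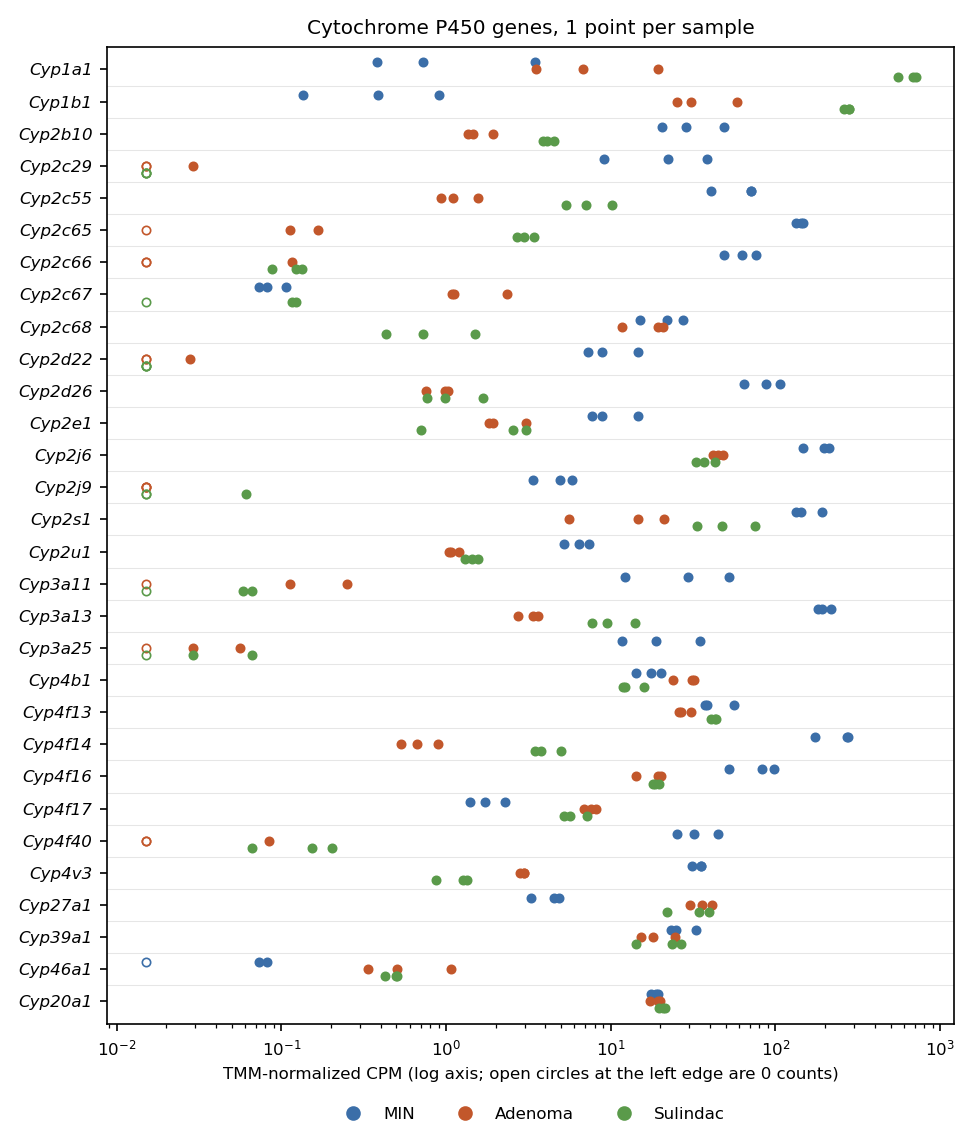
Level of 30 cytochrome P450 genes in each sample (1 point per sample, TMM-normalized CPM on a log axis, open circles for 0 counts), ordered by family. Most family 2, 3 and 4 genes sit farthest right in MIN, while the 3 Sulindac points of Cyp1a1 (555-714 CPM) and Cyp1b1 (259.6-281 CPM) lie to the right of every other sample.

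Both measurable family 1 genes rose with sulindac. Cyp1a1, which oxidises polycyclic aromatic hydrocarbons, was at 3.48, 0.727 and 0.381 CPM in MIN, 19.4, 3.49 and 6.79 in Adenoma, and 714, 686 and 555 in Sulindac. Every Sulindac sample was far above every untreated one, and the lowest Adenoma sample was level with the highest MIN sample without overlapping it. Cyp1a1 was 66.1-fold higher in Sulindac than in Adenoma (log2 fold change 6.05 ± 0.58 SE, adjusted p = 0.000309) and 423-fold higher than in MIN (8.72 ± 0.66, adjusted p = 1.17e-05). The difference between Adenoma and MIN (2.69 ± 0.84) did not pass the threshold (adjusted p = 0.0257), but did in the fit blocked by replicate number (2.84, adjusted p = 0.0011), in a single fit of all 9 samples and without MIN replicate 1 (4.12, adjusted p = 0.00344). Without any other single sample it was not called, with the log2 fold change down to 1.75 and the adjusted p up to 0.117.

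Cyp1b1, which acts on aromatic hydrocarbons and estradiol, was at 0.900, 0.385 and 0.136 CPM in MIN, 58.6, 25.3 and 30.9 in Adenoma, and 281, 259.6 and 279 in Sulindac. No groups overlapped, and the order was MIN, Adenoma, Sulindac. The log2 fold change was 6.31 ± 0.55 for Adenoma over MIN (adjusted p = 2.21e-05) and 2.84 ± 0.29 for Sulindac over Adenoma (adjusted p = 0.000364), and both calls held without any single sample. Cyp1b1 was the only member called higher in both of these comparisons. The remaining family 1 gene, the hepatic enzyme Cyp1a2, had 0 to 1 count in the untreated samples and 4, 3 and 1 in Sulindac and was not tested. Of the 50-base stretches of Cyp1a1 transcripts, 3.43% also occur in Cyp1a2.

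The promoters of Cyp1a1 and Cyp1b1 are shown because these genes carry most of the level in Sulindac. The dimer of the aryl hydrocarbon receptor and Arnt binds DNA at a core of the letters GCGTG, in capitals here (as CACGC where it lies on the other strand). The 250 bases before each start were taken from RefSeq (GRCm38.p6), 5′ to 3′ on the gene's strand.
Cyp1a1 (chr9:57697363-57697612, plus strand): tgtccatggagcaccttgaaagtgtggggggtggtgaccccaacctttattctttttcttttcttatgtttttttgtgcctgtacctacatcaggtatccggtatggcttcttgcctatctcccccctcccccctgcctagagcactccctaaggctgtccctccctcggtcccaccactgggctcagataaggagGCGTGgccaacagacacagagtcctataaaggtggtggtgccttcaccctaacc
Cyp1b1 (chr17:79715062-79715311, minus strand): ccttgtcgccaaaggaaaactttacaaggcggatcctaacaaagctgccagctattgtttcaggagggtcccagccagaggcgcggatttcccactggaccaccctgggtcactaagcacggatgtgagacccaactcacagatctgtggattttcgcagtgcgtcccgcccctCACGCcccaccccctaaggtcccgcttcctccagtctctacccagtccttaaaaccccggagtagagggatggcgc
The core begins at base -54 in Cyp1a1 and at -76 in Cyp1b1, counted from the start. It is short and common: on either strand, 28.2% of 32851 promoter windows of that length held it, against 18.6% of the 86 windows found for 76 members. With a T ahead of the core by 1 free base (TNGCGTG) it occurred in 4.1% of all windows and in 1 member window, that of Cyp2c68, so neither Cyp1a1 nor Cyp1b1 held that longer form within 250 bases. Such matches describe letters and not binding.

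Other genes of the aryl hydrocarbon receptor pathway were followed beside family 1. The receptor Ahr was at 22.5, 22.8 and 25.2 CPM in MIN, 133, 169 and 134 in Adenoma, and 118, 129.8 and 155 in Sulindac. It was higher in Adenoma than in MIN (2.63 ± 0.13, adjusted p = 9.1e-07), and Sulindac and Adenoma overlapped (-0.11, adjusted p = 0.592). Its repressor Ahrr rose with it in Adenoma (3.02 ± 0.37, adjusted p = 0.000173). Between Sulindac and Adenoma the Ahrr groups did not overlap (7.21-8.87 against 3.97-6.60 CPM), but the difference of 0.52 did not pass the threshold. Tiparp, which ADP-ribosylates the receptor, was at 37.6-44.4 CPM in MIN, lower in Adenoma at 25.1-27.6 (-0.59 ± 0.11, adjusted p = 0.00243) and higher in Sulindac at 55.2-57.4 (1.09 ± 0.09 over Adenoma, adjusted p = 0.00017). Nqo1, a quinone reductase that the NRF2 pathway also induces, was at 91.6-126 CPM in MIN, 73.7-130.3 in Adenoma and 414-436 in Sulindac, a difference of 2.00 ± 0.19 from Adenoma (adjusted p = 0.000291). Of the 5 genes on this list, Adenoma over MIN called 2 higher and 1 lower, against 18.5% and 20.1% of all genes tested. Sulindac over Adenoma called 2 higher and none lower, against 8.32% and 9.10% of all genes. Sulindac over MIN called all 5 higher, against 23.0% of all genes.

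**Figure D3:**
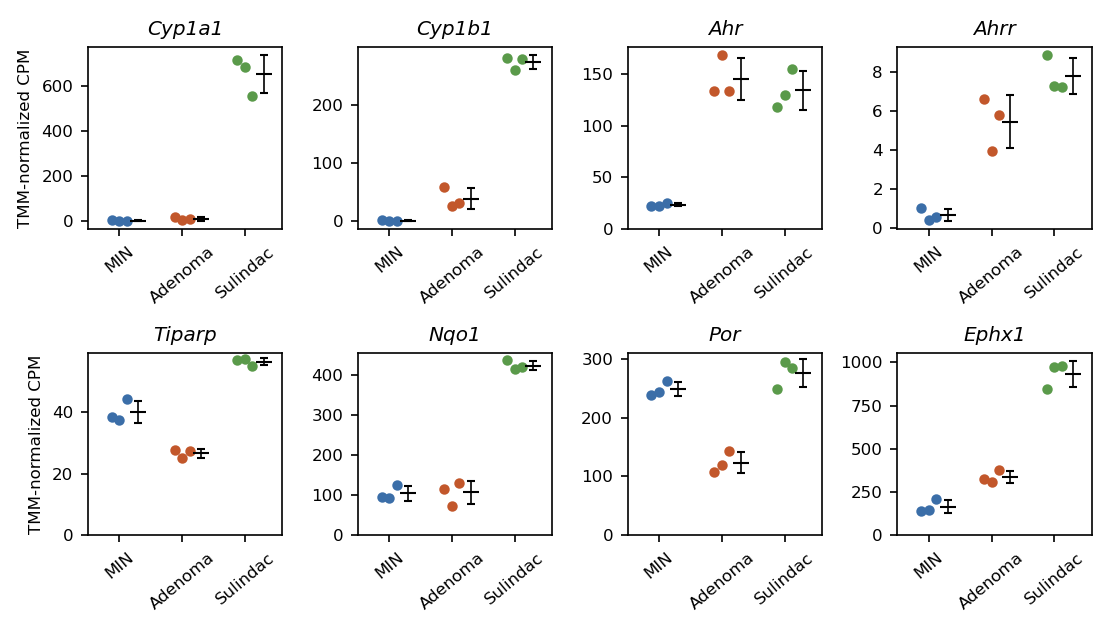
Levels (TMM-normalized CPM, linear axes from 0) of Cyp1a1, Cyp1b1, genes of the aryl hydrocarbon receptor pathway, the reductase Por and the epoxide hydrolase Ephx1, with 1 point per sample and the mean ± SD of the 3 samples in black. Ahr steps up between MIN (22.5-25.2 CPM) and Adenoma (133-169 CPM) and overlaps between Adenoma and Sulindac, whereas Cyp1a1, Cyp1b1, Nqo1 and Ephx1 are highest in Sulindac.

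Families 2 and 3 made up 57 members, of which 22 were tested in Adenoma over MIN, some of them through their MIN level alone. Of these, 17 (77.3%) were lower in Adenoma, where 20.1% of all genes tested were, 1 (Cyp2c67) was higher and 4 did not pass the threshold. The Cyp2c subfamily, whose enzymes epoxidise arachidonic acid and oxidise many drugs, is described first. Cyp2c65 was at 134, 143 and 148 CPM in MIN, 0.112, 0.168 and 0 in Adenoma (4, 6 and 0 counts), and 3.43, 2.97 and 2.71 in Sulindac. Its log2 fold change was -10.50 ± 0.33 in Adenoma over MIN (adjusted p = 9.66e-08) and 4.96 ± 0.54 in Sulindac over Adenoma (adjusted p = 0.000475), which left Sulindac 46.9-fold below MIN.

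Its neighbour Cyp2c66 was at 76.2, 62.3 and 48.8 CPM in MIN, 0, 0 and 0.116 in Adenoma, and 0.133, 0.122 and 0.0873 in Sulindac. It was lower in Adenoma (adjusted p = 4.81e-07), with 4 counts there, all in replicate 3, which give a count ratio of 1667 (exact 95% interval 651-6119.6). With 3 to 4 counts a sample in Sulindac no test against Adenoma was made. Since 20.2% of the 50-base stretches of Cyp2c65 occur in Cyp2c66, reads may have been divided between them. Cyp2c55 was at 71.1, 40.6 and 71.0 CPM in MIN, 0.927, 1.56 and 1.10 in Adenoma, and 10.2, 7.09 and 5.35 in Sulindac. It fell by 5.66 on the log2 scale in Adenoma (SE 0.30, adjusted p = 1.35e-06) and was higher in Sulindac by 2.66 (SE 0.31, adjusted p = 0.000647). Cyp2c29 was at 38.5, 22.4 and 9.15 CPM in MIN and had 1 count in Adenoma, a count ratio of 2524 (exact 95% interval 453-99716), and none in Sulindac, at least 251-fold lower than MIN by the floor of 3 counts per library. These intervals cover counting error only.

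The Cyp2c67 and Cyp2c68 genes went another way. Cyp2c68 was at 21.9, 27.4 and 15.0 CPM in MIN, 11.7, 19.4 and 20.7 in Adenoma, and 0.433, 1.50 and 0.727 in Sulindac. MIN and Adenoma overlapped (-0.31 ± 0.27, adjusted p = 0.355), whereas Sulindac was 19.2-fold below Adenoma without overlap (log2 fold change -4.26 ± 0.40, adjusted p = 0.000264). Cyp2c67 was at 0.0730, 0.107 and 0.0817 CPM in MIN (3 to 5 counts), 1.12, 1.09 and 2.34 in Adenoma, and 0, 0.122 and 0.116 in Sulindac. It was higher in Adenoma by 4.06 ± 0.48 (adjusted p = 0.000149) and lower again in Sulindac (-4.14 ± 0.64, adjusted p = 0.00202, or 0.0114 without Sulindac replicate 3). These genes resemble each other and Cyp2c40 closely. Of their 50-base stretches, 52.8% of Cyp2c67 and 43.3% of Cyp2c68 are shared with other genes, so how reads were assigned among them is uncertain.

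The family 3 genes, broad oxidisers of drugs and steroids, were all lower in Adenoma among those tested. Cyp3a13 was at 193, 181 and 217 CPM in MIN, 3.59, 2.74 and 3.38 in Adenoma, and 7.70, 9.54 and 14.1 in Sulindac. It fell by 5.92 on the log2 scale in Adenoma (SE 0.16, adjusted p = 3.97e-08) and was 3.25-fold higher in Sulindac than in Adenoma (1.70 ± 0.25, adjusted p = 0.00162). Cyp3a11 was at 52.4, 29.5 and 12.1 CPM in MIN, with 4, 9 and 0 counts in Adenoma and 2, 0 and 2 in Sulindac, and fell by 7.96 on the log2 scale in Adenoma (SE 0.78, adjusted p = 4.82e-05). Cyp3a25 was at 34.8, 18.9 and 11.7 CPM in MIN and had 3 counts in all in Adenoma, a count ratio of 778 (exact 95% interval 266-3775). In both Cyp3a11 and Cyp3a25 the MIN samples spread widely, and MIN replicate 1 was highest, as it was for Cyp2c29 and Cyp2b10.

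Cyp2b10, the classical target of the constitutive androstane receptor, was at 48.6, 28.6 and 20.4 CPM in MIN, 1.94, 1.45 and 1.36 in Adenoma, and 4.50, 3.85 and 4.10 in Sulindac. It fell by 4.36 on the log2 scale in Adenoma (SE 0.35, adjusted p = 1.4e-05) and was 2.63-fold higher in Sulindac than in Adenoma (adjusted p = 0.00248), a call lost without Adenoma replicate 2 (0.0113), Sulindac replicate 1 (0.0132) or Sulindac replicate 3 (0.0128). Cyp2s1, an extrahepatic enzyme of epithelia, was at 132, 143 and 192 CPM in MIN, 21.1, 5.56 and 14.7 in Adenoma, and 75.2, 33.4 and 47.4 in Sulindac. It fell by 3.49 on the log2 scale in Adenoma (SE 0.42, adjusted p = 0.000164). Every Sulindac sample exceeded every Adenoma sample, but the difference missed the threshold (1.92 ± 0.45, adjusted p = 0.0126, or 0.00657 without Adenoma replicate 1). It also lay below MIN (-1.58 ± 0.28, adjusted p = 0.00141), which was lost without MIN replicate 3 (0.0126) or Sulindac replicate 3 (0.0113).

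The fatty acid epoxygenase Cyp2j6 was at 197, 210.2 and 147 CPM in MIN, 44.7, 42.0 and 48.0 in Adenoma, and 32.9, 42.8 and 36.7 in Sulindac. It was lower in Adenoma (-2.04 ± 0.15, adjusted p = 8.3e-06) and did not pass the threshold after treatment (-0.25 ± 0.11, adjusted p = 0.118). Its relative Cyp2j9 was at 4.92, 5.86 and 3.35 CPM in MIN and had no count in Adenoma, at least 55.4-fold lower. Cyp2d26, a member of the subfamily that oxidises basic drugs, was at 106, 87.9 and 64.1 CPM in MIN and at 0.752-1.03 in Adenoma (-6.53 ± 0.25, adjusted p = 2.27e-07), with Sulindac overlapping Adenoma. Cyp2d22 was at 14.6, 8.83 and 7.25 CPM in MIN, with 1 count in Adenoma (count ratio 1087, exact 95% interval 195-42971) and none in Sulindac (at least 110-fold lower than MIN).

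The ethanol-oxidising Cyp2e1 was at 7.67, 8.89 and 14.5 CPM in MIN and 1.94, 1.82 and 3.07 in Adenoma (-2.19 ± 0.32, adjusted p = 0.000468). In Sulindac it lay between 0.703 and 3.07 CPM and overlapped Adenoma, and its difference from MIN (-2.30, adjusted p = 0.00329) was lost without MIN replicate 2 (0.011) or Sulindac replicate 3 (0.0145). Cyp2u1, which hydroxylates long-chain fatty acids, was at 5.20-7.35 CPM in MIN and 1.04-1.20 in Adenoma (-2.52 ± 0.23, adjusted p = 3.14e-05). Cyp2u1 was at 1.31-1.57 in Sulindac, above every Adenoma sample by a difference of 0.39 that did not pass the threshold (adjusted p = 0.252). Among the family 2 genes not named by the rule, Cyp2d34 and Cyp2w1 were lower in Adenoma, and Cyp2c44, Cyp2d10 and Cyp2j13, all under 1 CPM, did not pass the threshold.

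Family 4 had 20 members, of which 9 were tested in Adenoma over MIN, with 6 lower (66.7%, against 20.1% of all genes) and 2 higher (22.2%, against 18.5%). Among the lower ones, Cyp4f15, Cyp4f37 and Cyp4f40 entered the test through their MIN level alone, so these shares describe the tested members only. Cyp4f14, an enzyme that inactivates leukotriene B4 by omega-hydroxylation, was at 277, 271 and 174 CPM in MIN, 0.899, 0.531 and 0.665 in Adenoma, and 5.001, 3.49 and 3.75 in Sulindac, with no overlap between groups. It was the most abundant member of MIN per length, fell by 8.42 on the log2 scale in Adenoma (SE 0.29, adjusted p = 1.27e-07) and was 5.85-fold higher in Sulindac than in Adenoma (2.55 ± 0.29, adjusted p = 0.000558). Cyp4f40 was at 25.4, 32.1 and 44.7 CPM in MIN with 3 counts in all in Adenoma (count ratio 1187, exact 95% interval 406-5760), and 2, 5 and 7 counts in Sulindac. Cyp4f16 was at 52.1-97.5 CPM in MIN, 14.3-20.2 in Adenoma and 18.1-19.7 in Sulindac, lower in Adenoma (-2.11 ± 0.24, adjusted p = 0.000111). It shares 16.3% of its 50-base stretches with Cyp4f37.

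Within the same subfamily Cyp4f13 and Cyp4f17 differed from these. Cyp4f13 was at 37.4, 38.3 and 56.2 CPM in MIN, 26.0, 26.8 and 30.6 in Adenoma, and 43.0, 40.5 and 43.6 in Sulindac. Its difference from MIN in Adenoma (-0.66 ± 0.17) had an adjusted p of 0.0116, of 0.00495 with the replicate block and of 0.00999 without MIN replicate 1. It was 1.53-fold higher in Sulindac than in Adenoma (0.62 ± 0.10, adjusted p = 0.00288), a call lost without Adenoma replicate 1 (0.0114) or 2 (0.0129) or Sulindac replicate 1 (0.016) or 3 (0.0179). Cyp4f17 was at 1.73, 1.39 and 2.29 CPM in MIN, 6.85, 7.54 and 8.12 in Adenoma, and 5.67, 5.23 and 7.16 in Sulindac, higher in Adenoma by 2.06 ± 0.24 (adjusted p = 0.000122). Cyp4f15, under 1 CPM, was lower in Adenoma (adjusted p = 0.00483) but not with the block (0.0151) nor without Adenoma replicate 1 (0.0215) or 2 (0.0214) or MIN replicate 1 (0.0185) or 2 (0.0187). Cyp4f37, also under 1 CPM, was lower in Adenoma (-2.65 ± 0.48, adjusted p = 0.00166) in every fit that left out a sample.

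Cyp4v3, a fatty acid hydroxylase, was at 35.3, 35.6 and 31.2 CPM in MIN, 2.98, 2.99 and 2.80 in Adenoma, and 1.27, 1.35 and 0.873 in Sulindac. It was the only member lower in Adenoma than in MIN (-3.54 ± 0.13, adjusted p = 2.26e-07) and lower again in Sulindac than in Adenoma (-1.33 ± 0.24, adjusted p = 0.00438). The second call was lost, at adjusted p of 0.0108 to 0.0203, when any sample but Adenoma replicate 3 was left out. Cyp4b1, which oxidises fatty acids and plant toxins, was at 17.7, 20.3 and 14.2 CPM in MIN, 24.0, 32.2 and 31.2 in Adenoma, and 12.1, 15.9 and 11.8 in Sulindac. Its rise in Adenoma (0.75 ± 0.17, adjusted p = 0.00589) was lost without MIN replicate 1 (0.0212) or 3 (0.0161) or Adenoma replicate 2 (0.0226) or 3 (0.0182). Its fall in Sulindac (-1.13 ± 0.16, adjusted p = 0.0014) was lost without Sulindac replicate 3 (0.0103).

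Of the 6 sterol and bile acid members 3 were tested, with 2 higher in Adenoma than in MIN, against 18.5% of all genes tested. In Sulindac over Adenoma 0 were called (0 also at an unadjusted p under 0.05 in the edgeR test). There 8.32% of all genes were higher and 9.10% lower. Cyp27a1, the mitochondrial sterol hydroxylase of the alternative bile acid pathway, was at 4.55, 3.27 and 4.85 CPM in MIN, 30.5, 35.6 and 41.4 in Adenoma, and 22.1, 34.3 and 39.3 in Sulindac. It was 8.52-fold higher in Adenoma than in MIN (3.09 ± 0.20, adjusted p = 3.55e-06), and Sulindac overlapped Adenoma (-0.16 ± 0.20, adjusted p = 0.581). Cyp46a1, the cholesterol hydroxylase best known from brain, had 3, 0 and 3 counts in MIN, 12, 18 and 37 in Adenoma, and 15, 14 and 17 in Sulindac. Its rise in Adenoma (3.62 ± 0.77, adjusted p = 0.00396) was lost without any single MIN sample (0.01 to 0.0111) or without Adenoma replicate 3 (0.0149), and its rise over MIN in Sulindac (3.19, adjusted p = 0.0024) without Sulindac replicate 1 (0.0101) or 3 (0.01). The oxysterol hydroxylase Cyp39a1 stayed between 14.3 and 33.1 CPM in all 9 samples and passed the threshold in no comparison. In Adenoma over MIN its unadjusted p in the edgeR test was under 0.05. Cyp7a1, Cyp7b1 and Cyp8b1 were not tested.

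Of the 6 steroid hormone enzymes none was tested, and Cyp11a1 was the only member of that group with more than 3 counts in any sample (12 at most). Among the 6 enzymes of vitamin D and retinoic acid, Cyp26b1, which clears retinoic acid, was at 1.09-3.41 CPM in MIN, 3.69-5.98 in Adenoma and 1.65-3.57 in Sulindac. Its Adenoma samples exceeded all others, and neither difference passed the threshold (adjusted p = 0.0884 over MIN and 0.073 for Sulindac over Adenoma). Cyp27b1, which activates vitamin D, stayed under 1 CPM in all samples. Cyp20a1, a P450 with no agreed substrate, was at 17.3-21.3 CPM in all 9 samples, and its log2 fold changes were 0.02 ± 0.12, 0.13 ± 0.11 and 0.14 ± 0.10 in the 3 comparisons.

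In Sulindac over Adenoma 26 members were tested and 73 were not. Higher in Sulindac were 8 (30.8% of those tested) and lower 4 (15.4%), where 8.32% of all genes tested were higher and 9.10% lower. The 8 were Cyp1a1, Cyp1b1, Cyp2b10, Cyp2c55, Cyp2c65, Cyp3a13, Cyp4f13 and Cyp4f14, and the 4 were Cyp2c67, Cyp2c68, Cyp4b1 and Cyp4v3. The median log2 fold change was 0.15 over the tested members and -0.01 over all genes. Over all genes, 1078 were called higher and 1179 lower with TMM normalization and 603 higher and 1983 lower with library size alone, while the members' counts stayed at 8 and 4. Without Sulindac replicate 3 the count of lower members went from 4 to 1, with only Cyp2c68 left.

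The 23 members that fell in Adenoma can be set beside their values in Sulindac, though both comparisons share the Adenoma samples. Over all genes tested in Sulindac over Adenoma, 8.32% were called higher and 9.10% lower. The shares among all genes lower in Adenoma were not computed. Of the 23, 5 were higher in Sulindac than in Adenoma (Cyp2b10, Cyp2c55, Cyp2c65, Cyp3a13, Cyp4f14), 1 was lower (Cyp4v3), 6 did not pass the threshold and 11 had too few counts to be tested. All 5 stayed below MIN in Sulindac, by 7.86-fold for Cyp2b10, 8.10 for Cyp2c55, 18.8 for Cyp3a13, 46.9 for Cyp2c65 and 59.3 for Cyp4f14 (log2 fold changes fitted between -2.97 and -5.89). Of the 8 enterocyte markers, 3 were tested in Sulindac over Adenoma, with 2 lower and 1 not past the threshold, and 5 had too few counts. In Sulindac over MIN, 39 members were tested, 5 higher and 24 lower, against 23.0% of all genes higher and 26.8% lower. The 5 were Cyp1a1, Cyp1b1, Cyp27a1, Cyp46a1 and Cyp4f17. Some of the 24 entered the test through their MIN level alone, so these counts describe the tested members only.

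**Figure D4:**
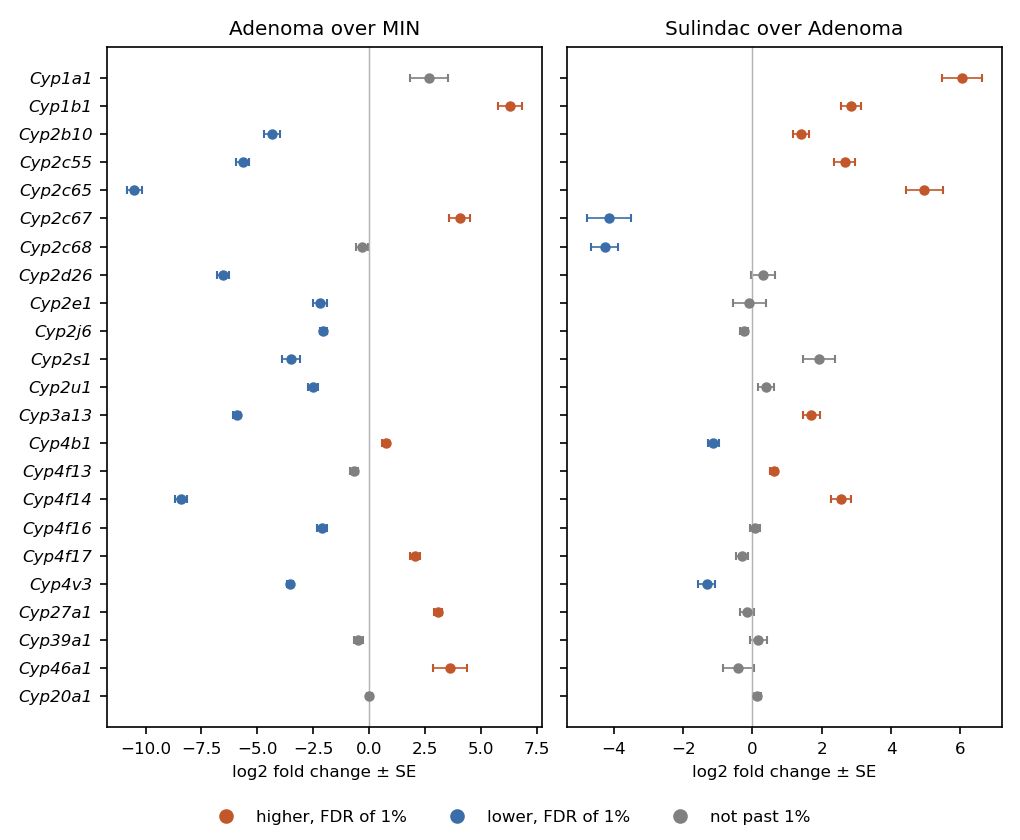
Log2 fold change ± SE of the 23 named cytochrome P450 genes tested in both comparisons, for Adenoma over MIN (left) and Sulindac over Adenoma (right), colored by the call at an FDR of 1%. These are not the 23 members lower in Adenoma. Of those, the 11 with too few counts for the right panel are left out, among them Cyp2c29 (-10.845 in Adenoma over MIN) and Cyp2c66 (-10.57). Both panels use the same Adenoma samples. Among the genes shown, Cyp2c65 has the lowest value on the left (-10.50) and the second highest on the right (4.96), after Cyp1a1 (6.05).

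Partners of the P450 enzymes were counted from lists. Of the electron donors and partners, 9 of the 10 listed were in the table and all 9 were tested. In Adenoma over MIN 3 were lower and none higher, where 20.1% and 18.5% of all genes tested were. In Sulindac over Adenoma 4 were higher and none lower, against 8.32% and 9.10% of all genes. In Sulindac over MIN 3 were higher and 1 lower, against 23.0% and 26.8%. The reductase Por, which feeds all microsomal P450 enzymes, was at 239, 244 and 262 CPM in MIN, 108, 119 and 143 in Adenoma, and 249, 295 and 285 in Sulindac. It fell by 1.01 on the log2 scale in Adenoma (SE 0.13, adjusted p = 0.000201) and rose in Sulindac by 1.17 ± 0.12 (adjusted p = 0.000387). Pgrmc1, a heme-binding partner, followed the same course at smaller size (-0.48, then 0.64).

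Heme synthesis, which supplies the P450 cofactor, had 8 genes tested. In Adenoma over MIN 1 was higher and 1 lower, where 18.5% and 20.1% of all genes tested were. In Sulindac over Adenoma 2 were higher and none lower, against 8.32% and 9.10% of all genes. Alad, the porphobilinogen synthase, was at 74.1-74.9 CPM in MIN, 129.7-198 in Adenoma and 390.04-431 in Sulindac, higher at both steps (1.10 ± 0.16, adjusted p = 0.000414, then 1.36 ± 0.15, adjusted p = 0.000518). Alas1, the rate-limiting synthase, was higher in Sulindac than in Adenoma by 0.60 ± 0.10 (adjusted p = 0.00299), and the coproporphyrinogen oxidase Cpox was lower in Adenoma (-0.82 ± 0.10).

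The epoxide hydrolases, which open the epoxides that P450 enzymes make, parted ways in Adenoma over MIN. Ephx1, the microsomal enzyme for xenobiotic epoxides, was at 138, 145 and 207 CPM in MIN, 324, 307 and 374 in Adenoma, and 847, 974 and 982 in Sulindac, with no overlap between groups (1.03 ± 0.17, adjusted p = 0.000992, then 1.49 ± 0.12, adjusted p = 0.000143). Ephx2, the soluble enzyme for fatty acid epoxides, was at 53.0, 41.9 and 22.5 CPM in MIN, 0.0281, 0 and 0.0578 in Adenoma, and 0.667, 0.611 and 0.320 in Sulindac. Its Adenoma samples lay under the floor of 3 counts (1, 0 and 2 counts), so no fold is given. It was called lower in Adenoma over MIN (adjusted p = 1.71e-06) and higher in Sulindac over Adenoma (adjusted p = 0.00302). Of the 4 hydrolases, 3 were tested in Adenoma over MIN, with 2 higher and 1 lower, against 18.5% and 20.1% of all genes. In Sulindac over Adenoma 3 were tested, with 2 higher (Ephx1 and Ephx2), against 8.32% of all genes.

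The nuclear receptors and their partners, through which many family 2, 3 and 4 genes are induced, were tested as a list of 18. In Adenoma over MIN, 10 of 17 tested were lower and 1 higher (the retinoic acid receptor Rarg, 1.62 ± 0.18), where 20.1% and 18.5% of all genes were. In Sulindac over Adenoma 2 of 16 were higher and 1 lower, where 8.32% and 9.10% of all genes were. The constitutive androstane receptor Nr1i3 was at 10.1, 9.47 and 14.7 CPM in MIN and at no more than 0.0562 in any Adenoma or Sulindac sample. It entered the tests against MIN through its MIN level alone. The bile acid receptor Nr1h4 was at 25.8, 24.4 and 44.6 CPM in MIN, 0.814, 0.727 and 0.549 in Adenoma, and 0.700, 0.703 and 1.11 in Sulindac (-5.49 ± 0.31 in Adenoma over MIN, adjusted p = 2.03e-06). Nr5a2 fell by 4.69 on the log2 scale in Adenoma (adjusted p = 2.11e-05). The vitamin D receptor Vdr fell from 174-252 CPM in MIN to 10.8-13.1 in Adenoma (-4.16 ± 0.17) and was at 18.8-25.4 in Sulindac, higher than Adenoma (0.92 ± 0.15, adjusted p = 0.00235) but lower than MIN (-3.25 ± 0.17). Also higher in Sulindac than in Adenoma was Ppard (0.50 ± 0.09, adjusted p = 0.0037), and lower was Ppara (-1.36 ± 0.30, adjusted p = 0.00891).

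Chosen after their values were seen, the pregnane X receptor Nr1i2 and the hepatocyte nuclear factor Hnf4a are given for their link to these P450 genes. Nr1i2 was at 55.5, 54.99 and 60.5 CPM in MIN, 5.22, 4.72 and 5.38 in Adenoma, and 5.43, 4.80 and 3.72 in Sulindac (-3.48 ± 0.12 in Adenoma over MIN, adjusted p = 1.4e-07). Hnf4a was at 1083, 1152 and 1271 CPM in MIN, 305, 274 and 245 in Adenoma, and 280.1, 251 and 218 in Sulindac (-2.09 ± 0.14 in Adenoma over MIN, adjusted p = 4.52e-06). In both genes Sulindac overlapped Adenoma.

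A motif that the HNF4 factors bind, CAAAGTCCA, was found within 250 bases before the start in 11 of 86 member windows (12.8%), against 0.384% of all 32851 windows, on either strand. The 11 genes were Cyp2c40, Cyp2c65, Cyp2c67, Cyp2c68, Cyp2c69, Cyp2c70, Cyp3a11, Cyp3a16, Cyp3a41a, Cyp3a41b and Cyp8b1, most of them neighbours of common descent that share sequence, so that the matches are not independent. The windows of the 4 that were tested are shown with the motif in capitals (RefSeq, GRCm38.p6, 5′ to 3′ on the gene's strand).
Cyp2c65 (chr19:39060870-39060918, plus strand): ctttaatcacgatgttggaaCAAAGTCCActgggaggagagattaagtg
Cyp2c67 (chr19:39649139-39649187, minus strand): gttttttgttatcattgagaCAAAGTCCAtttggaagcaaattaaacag
Cyp2c68 (chr19:39741150-39741198, minus strand): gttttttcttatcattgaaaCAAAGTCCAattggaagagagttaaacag
Cyp3a11 (chr5:145879935-145879983, minus strand): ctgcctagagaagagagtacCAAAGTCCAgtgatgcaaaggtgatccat
The motif begins at -116, -125, -77 and -109 from the start. Cyp2c65 and Cyp3a11 fell in Adenoma, Cyp2c67 rose from a MIN level of 3 to 5 counts a sample, and Cyp2c68 did not pass the threshold there but fell in Sulindac. How reads were assigned to Cyp2c67 and Cyp2c68 is uncertain, as 52.8% and 43.3% of their 50-base stretches are shared with other genes. Any part of HNF4 factors in these levels was not tested. The letters TTTATGG, bound by CDX factors, were in 2 member windows (2.33%, against 2.43% of all) and TATAAA, the core of the TATA box, in 30 (34.9%, against 12.4%).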

How the data were processed

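RNA-seq was measured in 9 organoid samples, 3 in each of the groups MIN, Adenoma and Sulindac. The authors deposited raw counts per gene symbol, with no normalization, and the submitters' processing notes name RSEM, Bowtie2 2.2.4 and mm9. The annotation, the strand of the library and the roles of these tools are not given in the sources used here, so reads of overlapping or antisense genes cannot be told apart. For MIN replicate 1 the column that sums its 2 runs was used. Symbols turned into dates (27 of 23955 rows) stayed in the tests.

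Genes were filtered with filterByExpr, normalized by TMM and compared with the quasi-likelihood test of edgeR 4.0.16 (robust glmQLFit) under R 4.3.3, each fit holding only the groups compared. Adjusted p-values are Benjamini-Hochberg values over all genes tested, with a threshold of 1%. The script was tested on simulated data. Folds and log2 fold changes come from the fit, except bounds and count ratios, which are computed from counts. Each SE is the log2 fold change over the root of its F statistic. P-values set the difference between groups against the spread between 3 samples a group, moderated across genes. Genes named are members with a mean of at least 5 CPM in a group and, for each comparison and direction, the 5 largest changes past the threshold without overlap between groups. From each list of pathway genes up to 3 past the threshold are named per comparison, not in each case those with the largest change. Among those left out are Cyb5r1 (log2 fold change -1.32 in Adenoma over MIN) and Ephx4 (4.09, with 1 count in each MIN sample). Members below these levels, Rarg, Nr1i2 and Hnf4a were named after their values were seen. The members, lists and rules were chosen with earlier results of these data known.

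Same-numbered Adenoma and MIN samples correlated in their deviations from the group means (r = 0.126, 0.113 and 0.192), each sample best with its own number. The labels state no pairing, so the main tests left it out, and the replicate block is given where it changes a call. Alternatives were RLE size factors, library size alone, other filters, a single fit, the block, leaving out each sample, DESeq2 1.42.0, and other thresholds. Transcript lengths and shared 50-base stretches came from GENCODE M21, in which 98 of 99 members matched, and promoters from RefSeq.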

Additional observations from a re-analysis of the deposited data

How the results depend on the processing

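With all alternatives set for the counts of members called (RLE size factors, library size alone, no filter, a single fit of all 9 samples, DESeq2's Wald test, a 2-fold minimum, 5% as FDR), each count stayed within 1.5 times its value. Requiring at least 10 counts in every sample was the exception: it left 3 higher and 11 lower members in Adenoma over MIN and 3 higher and 13 lower in Sulindac over MIN, since it tested fewer members (21 and 22 in place of 39). Without any filter, 30 members were lower in Adenoma than in MIN. Leaving out each sample gave 4 to 6 higher and 22 to 25 lower members in Adenoma over MIN, 6 to 8 and 1 to 4 in Sulindac over Adenoma, and 4 to 5 and 23 to 25 in Sulindac over MIN. Library size alone moved the all-gene median (log2) from -0.01 to 0.13 in Adenoma over MIN and from -0.01 to -0.18 in Sulindac over Adenoma.

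The replicate block gave 7 higher and 23 lower members in Adenoma over MIN, 9 and 4 in Sulindac over Adenoma, and 5 and 24 in Sulindac over MIN. In Sulindac over Adenoma the same-numbered samples correlated at 0.253, 0.208 and -0.074, and in Sulindac over MIN at -0.0303, 0.396 and 0.252. Some of these values exceed those for Adenoma and MIN, but not every sample correlated best with its own number. Whether the numbers pair the samples is not settled in any comparison. With the block Cyp2s1 was called in Sulindac over Adenoma (adjusted p = 0.000582).

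Of 552 fold changes of named genes under settings other than leaving out a sample, 539 kept their side of the threshold, 4 lost and 9 gained a call, and none reversed. Of 492 with a sample left out, 461 kept it, 28 lost and 3 gained a call, and none reversed. Depth limits the members with few or no counts in Adenoma or Sulindac, whose changes have wide intervals.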

Other observations

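Beyond the 40 tested members, 14 exceeded 3 counts in at least 1 sample, none above 34 counts, and these values were picked after they were seen. Cyp2r1, the main vitamin D hydroxylase of the liver, had 34, 10 and 8 counts in MIN and 0 in all 6 other samples. The same pattern of counts in MIN and 0 elsewhere was seen for Cyp2c38 (29, 20 and 10 counts), Cyp3a59 (5, 12 and 7) and the fatty acid hydroxylase Cyp4a10 (9, 6 and 7). With no filter on low counts, these 4 genes and Cyp11a1 (9, 12 and 9 counts in MIN, 1, 1 and 2 in Adenoma) were called lower in Adenoma, with adjusted p between 0.000454 and 0.00679.

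A pair of Cyp4a genes had its highest counts in Adenoma. Cyp4a31 had 0, 2 and 2 counts in MIN, 9, 11 and 6 in Adenoma and 1, 2 and 1 in Sulindac. Cyp4a32 had 6, 8 and 1 counts in MIN, 5, 13 and 11 in Adenoma and 1, 3 and 0 in Sulindac, so that its MIN and Adenoma samples overlapped. Neither was called in any comparison, with or without the filter.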
